A study of Mus musculus with 4 samples.

Results

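The genes described here encode 7 proteins of integrin adhesions and cell contacts, measured in cardiac neural crest cells (NCCs) that had lost integrin-linked kinase (ILK). They are Itgb2, Itgb3, Fermt3, Zyx, Vcl, Rock2 and Ctnnb1, taken from 542 genes that a probe set of the authors' list of differing probe sets names alone. All 7 genes had such a probe set, and Zyx had 2, which gave 8 probe sets. Any other probe sets of these genes on the array carry no name here and were not analysed. The values below thus describe these 8 probe sets, and others of the same genes may differ. A probe set is on that list because it passed the authors' own test of the genotypes, so the members were selected by the same contrast that is described below, and their differences between genotypes are given without a test. The smallest difference of any probe set that names 1 gene was 0.21 on the log2 scale, close to the lowest members at 0.22, and the probe sets just outside the list carry no name here.

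Cardiac NCCs were sorted from the outflow tract (OFT) of mouse embryos at E10.5. NKO mutants (Wnt1-Cre;ILK f/f) lacked ILK in the neural crest, where the Wnt1-Cre transgene is active, and their control littermates (Wnt1-Cre;ILK f/+), labelled wildtype, carried the same transgene and 1 floxed copy of the gene. In both genotypes the crest lineage carried a lacZ reporter, OFTs of one genotype were pooled, and cells stained with the β-galactosidase substrate FDG were collected by FACS. The cells of separate sorts were pooled when RNA was extracted, by the paper's methods. The RNA of 2 biological replicates per genotype was hybridized to 4 Affymetrix mouse genome arrays, with the division of embryos and sorts between replicates not given in the sources used here. If replicates share embryos or sorts, the spread between them is in part technical.

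Integrins are receptors made of an α and a β chain that bind extracellular matrix or other cells. The short cytoplasmic tail of the β chain recruits talin and the kindlins, which switch the receptor to its active state, and ILK, which with its partners PINCH and parvin links the tail to actin. Vinculin and zyxin join the adhesion as it comes under tension, kinases that act on myosin drive the contraction of actomyosin that supplies this tension, and β-catenin serves the cadherin contacts between cells as well as Wnt signaling. The neural crest uses integrins and cadherins to leave the neural tube and to migrate to the OFT.

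Ilk itself had intensities of 467.7 and 386.7 in the NKO mutants, against 809.5 and 800.7 in the controls. This was a log2 difference of −0.90 (standard error 0.11, n = 2 arrays per genotype), and the arrays of the genotypes did not overlap. Part of the Ilk signal was thus still measured in the sorted NKO cells, more in the first array than in the second. Across all arrays the median intensity lay between 75.9 and 79.3. Of 20 neural crest and mesenchyme markers, 2 could be named, because their probe sets are on the authors' list of differing probe sets. Prrx1, a mesenchymal homeobox gene, had 4717 and 4698 in the NKO mutants, against 4072 and 3910 in the controls. Msx2, a homeobox gene of crest mesenchyme, had 707.2 and 699.2 in the NKO mutants, against 584.6 and 572.1 in the controls. Sox10 and the other 17 markers were not analysed here.

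All 8 member probe sets had higher intensities in both NKO arrays than in both control arrays. Over all 45037 probe sets tested, 24.2% had this order, and since the members were selected on the same contrast, nothing is read from the count. Their log2 differences, taken on the log2(intensity + 16) scale, lay between 0.22 and 0.62, with a median of 0.30, beside a median of 0.013 over all probe sets tested. Fermt3 was the only member at least 1.5-fold higher, the cutoff of the study's methods, which 0.286% of all probe sets passed. The offset of 16 narrows differences, most of all for dim probe sets. In a bulk sample, more cells of a type that expresses a gene and more RNA of that gene per cell cannot be told apart.

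**Figure D1:**
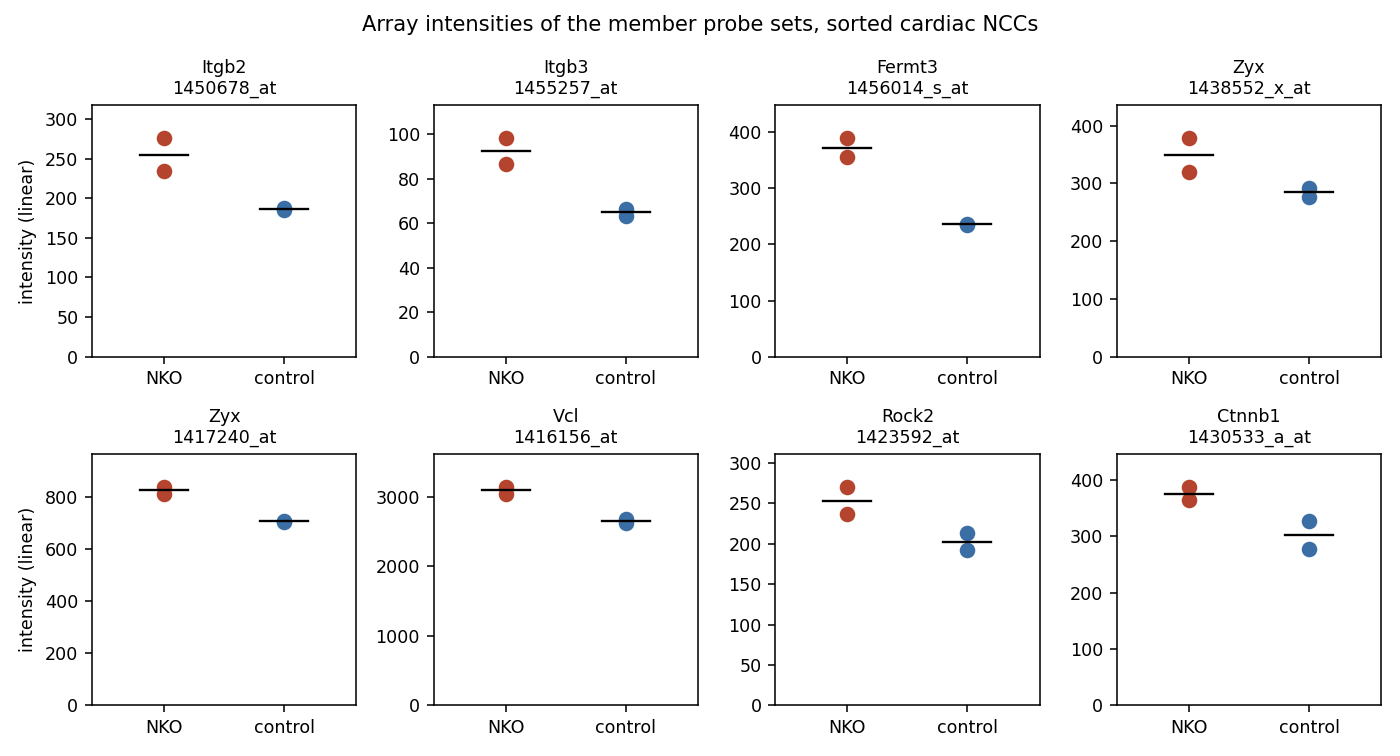
Linear array intensity of each member probe set (vertical axis, starting at 0) in the NKO and control arrays; points are single arrays and bars are means of 2 arrays. In each panel both NKO arrays lie above both controls, with the nearest arrays of Zyx 1438552_x_at at 320.1 and 292.8.

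Among the integrin chains, Itgb2 (probe set 1450678_at) encodes β2 (CD18), the chain of the leukocyte integrins, which lets white blood cells adhere to vessel walls and to other cells. Its intensities were 275.6 and 233.7 in the NKO mutants, against 187.0 and 185.6 in the controls. The controls were nearly equal and the NKO arrays were apart, the lower one being 1.25-fold above the higher control. The log2 difference was 0.42 (standard error 0.096, n = 2 arrays per genotype), and it was 0.53 without the second NKO array and 0.30 without the first.

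Itgb3 (1455257_at) encodes β3 (CD61), which forms the platelet fibrinogen receptor with αIIb and the vitronectin receptor with αv, and whose tail is one that ILK binds. Its intensities were 98.21 and 86.65 in the NKO mutants, against 66.56 and 63.44 in the controls. The lower NKO array was 1.3-fold above the higher control. The log2 difference was 0.42 (standard error 0.080, n = 2 arrays per genotype) and stayed between 0.34 and 0.50 when any 1 array was left out. With an offset of 4 it was 0.48, and with an offset of 64 it was 0.28. Of the 26 integrin chains looked for, Itgb2 and Itgb3 were the ones with a named probe set, and both were higher. The β1 chain and all α chains were not analysed here.

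Fermt3 encodes kindlin-3, the kindlin of blood cells, which binds β tails and is needed to activate integrins on platelets and leukocytes. Its intensities were 389.3 and 355.3 in the NKO mutants, against 235.4 and 236.2 in the controls. The controls were nearly equal, the NKO arrays were 0.13 apart on the log2 scale, and the lower NKO array was 1.5-fold above the higher control. Its log2 difference of 0.62 (standard error 0.071, n = 2 arrays per genotype), or 1.54-fold, was the largest among the members. It was 0.69 without the second NKO array and 0.56 without the first, a value below the 1.5-fold cutoff. The name of its probe set, 1456014_s_at, marks by Affymetrix convention probes that can match transcripts of more than 1 gene, although the authors' list names Fermt3 alone. Of the 16 tail binders and ILK partners looked for, Ilk was the other one with a named probe set, while Fermt1, Fermt2, the talins, the PINCH genes and the parvins were not analysed here.

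The bases before the start site of Fermt3 are shown because they hold a motif found in no other member's window. They are from RefSeq (GRCm38.p6), chr19:7019470-7019719 on the minus strand, written 5′ to 3′, and capitals mark TGTGGT, a core bound by RUNX factors.
Fermt3: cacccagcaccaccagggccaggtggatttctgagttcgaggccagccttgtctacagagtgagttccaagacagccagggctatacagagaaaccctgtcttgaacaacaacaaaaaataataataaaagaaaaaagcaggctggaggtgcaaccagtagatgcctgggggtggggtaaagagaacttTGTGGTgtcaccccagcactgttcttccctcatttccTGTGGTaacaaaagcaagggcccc
The 2 matches begin at positions −61 and −24 from the start site. The motif occurred in 16.8% of all 32851 promoter windows of the same length.

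The other 4 genes are expressed in many cell types, and their 5 probe sets had smaller differences, between 0.22 and 0.30. Vcl (1416156_at) encodes vinculin, which ties talin and α-catenin to actin and so serves both matrix adhesions and cell contacts. Its intensities were 3139 and 3042 in the NKO mutants, against 2677 and 2621 in the controls. The lower NKO array was 1.14-fold above the higher control, and replicates of both genotypes lay close together. The log2 difference was 0.22 (standard error 0.059, n = 2 arrays per genotype), between 0.20 and 0.24 with any 1 array left out.

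The bases before the start site of Vcl are shown for the CArG box that they hold, the element through which serum response factor acts on many actin and adhesion genes. They are from RefSeq (GRCm38.p6), chr14:20929148-20929382 on the plus strand, written 5′ to 3′ and ended before the first annotated base of the gene, with the CArG box in capitals.
Vcl: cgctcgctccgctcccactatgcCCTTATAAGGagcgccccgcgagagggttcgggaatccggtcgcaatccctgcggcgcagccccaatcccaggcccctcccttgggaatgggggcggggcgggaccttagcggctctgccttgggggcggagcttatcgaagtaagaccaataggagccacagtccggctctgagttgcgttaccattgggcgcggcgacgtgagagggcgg
The box begins at position −227 from the start site of the window. Of the 6 member windows this was the only one with a CArG box, and 1.63% of all windows held one. The same Vcl window had 4 matches to GGGCGG, the core bound by SP1.

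Zyx encodes zyxin, a LIM domain protein that brings Ena/VASP proteins and so actin assembly to tense adhesions. One probe set, 1417240_at, had intensities of 839.8 and 813.5 in the NKO mutants, against 710.2 and 704.4 in the controls. The log2 difference was 0.22 (standard error 0.058, n = 2 arrays per genotype), the same size as that of Vcl, with replicates that lay close together. The other probe set, 1438552_x_at, had 378.3 and 320.1 in the NKO mutants, against 276.7 and 292.8 in the controls. Its NKO arrays were further apart than those of 1417240_at, by 0.23 against 0.05 on the log2 scale. Its log2 difference of 0.28 (standard error 0.10) was 0.16 without the first NKO array and 0.39 without the second. The suffix of 1438552_x_at marks, by the same convention, probes that can cross-hybridize to unrelated sequence. Both probe sets therefore had the same direction, and the one with the wider spread had the larger difference.

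Rock2 (1423592_at) encodes a kinase that raises myosin phosphorylation and the contraction of actin bundles attached to adhesions. Its intensities were 270.6 and 236.5 in the NKO mutants, against 213.7 and 191.9 in the controls. Replicates differed in both genotypes, by 0.18 between the NKO arrays and by 0.14 between the controls on the log2 scale, and the nearest arrays were 1.11-fold apart. The log2 difference was 0.30 (standard error 0.099, n = 2 arrays per genotype) and lay between 0.21 and 0.39 with any 1 array left out.

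Ctnnb1 (1430533_a_at) encodes β-catenin, which joins cadherins to α-catenin at cell contacts and carries Wnt signals to the nucleus. Its intensities were 364.0 and 388.2 in the NKO mutants, against 328.0 and 278.0 in the controls. Here the controls had the wider spread, 0.23 against 0.09 for the NKO arrays on the log2 scale, and the lower NKO array was 1.11-fold above the higher control. The log2 difference was 0.30 (standard error 0.10, n = 2 arrays per genotype), 0.19 without the second control array and 0.41 without the first. Ctnnb1 was the only member with a higher signal in the second NKO array than in the first. In the other 7 probe sets the first NKO array was the higher one, as it was in 56.1% of all probe sets tested.

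**Figure D2:**
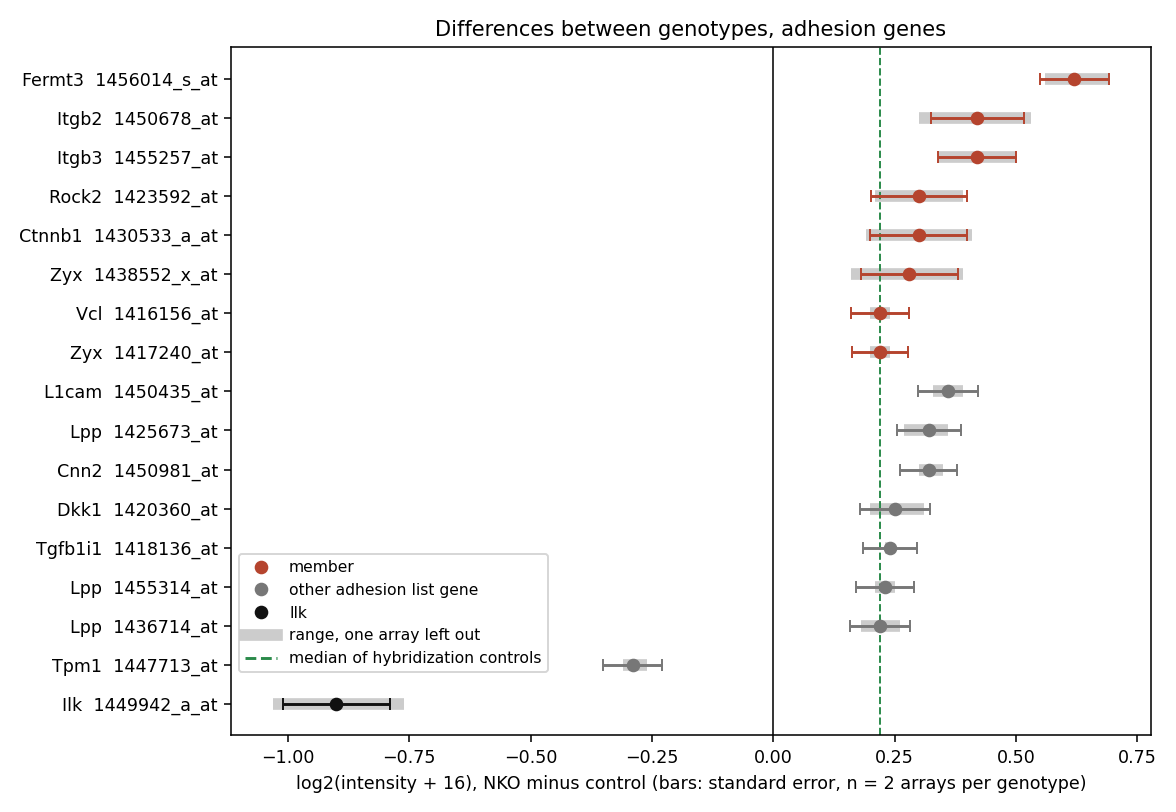
Difference between genotypes on the log2(intensity + 16) scale for each probe set (horizontal axis), with bars for the standard error (n = 2 arrays per genotype), gray bands for the range with 1 array left out, and a dashed line for the median of the hybridization controls. Fermt3 lies farthest to the right among the members at 0.62, Vcl and Zyx 1417240_at lie on the dashed line at 0.22, and Ilk lies at −0.90.

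Of 134 genes in 6 lists of integrins, their binders, adhesion adaptors, actomyosin, cell contacts and targets of β-catenin, 14 had a named probe set. Apart from the members and Ilk these were 6 genes, all on the authors' list for the same reason as the members, and 5 of them were higher and 1 lower, with a median log2 difference of 0.25. Among all 542 genes named alone, 59.2% were higher, beside 54.1% of all probe sets tested. With limma over all 45037 probe sets, 0 had an adjusted p under 0.05 (3972 had an unadjusted p under 0.05, or 8.82%, of which 2331, 5.18% of all, were higher in the NKO mutants), so 0 genes of these lists passed. With a robust fit that follows the intensity trend, limma had 520 such probe sets by the adjusted p. Whether genes of these lists are among them is not reported here.

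Lpp, a zyxin relative of focal adhesions and cell contacts, had 3 probe sets with log2 differences of 0.22, 0.23 and 0.32. One of them had intensities of 1834 and 1866 in the NKO mutants, against 1600 and 1549 in the controls. Tgfb1i1, which encodes the paxillin relative Hic-5, had 347.1 and 349.6 in the NKO mutants, against 294.5 and 291.5 in the controls, a log2 difference of 0.24 (standard error 0.056, n = 2 arrays per genotype). Tgfb1i1 and 2 of the 3 Lpp probe sets thus had differences between 0.22 and 0.24, near that of Vcl, and the third Lpp probe set had a larger one.

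Cnn2, the actin-binding calponin of many non-muscle cells, had 2822 and 2932 in the NKO mutants, against 2308 and 2282 in the controls, a log2 difference of 0.32 (standard error 0.059, n = 2 arrays per genotype). Tpm1, a tropomyosin that stabilizes actin filaments, was the lower one, with 128.3 and 124.2 in the NKO mutants, against 154.2 and 160.6 in the controls. The contractile genes named beside Rock2 therefore did not share 1 direction, and the Tpm1 transcripts that its probe set detects were not resolved. L1cam, a cell adhesion molecule of neurons, had 106.1 and 110.4 in the NKO mutants, against 83.07 and 79.06 in the controls. Dkk1, which encodes a Wnt antagonist and is itself a target of β-catenin, was the 1 gene named of 12 such targets, with 869.2 and 801.9 in the NKO mutants, against 713.8 and 681.0 in the controls. The other 11 targets, Axin2 and Lef1 among them, were not analysed here.

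Itgb2, Itgb3 and Fermt3 are known as genes of blood cells, although Itgb3 is not confined to them, since β3 also forms the vitronectin receptor with αv. The markers of blood cells that could be named were higher in the same arrays. Here and below, a marker could be named only if its probe set passed the authors' test of the genotypes. The counts, medians and sums therefore describe selected probe sets and not whole lists. Of all 542 genes named alone, 59.2% were higher. Of 24 megakaryocyte and platelet markers, 10 could be named and all 10 were higher, with a median log2 difference of 0.63, and their summed intensity was 4279 and 4180 in the NKO mutants, against 2454 and 2412 in the controls. Pf4 and Ppbp, chemokine genes of platelet granules, had differences of 0.86 and 0.90, Tubb1, the platelet tubulin gene, 0.70, and Plek, the gene of pleckstrin, 0.70. The gene of αIIb, the partner of β3 on platelets, is among the 24 markers looked for, but no probe set could be named for it and it was not analysed. Fermt3, at 0.62, had a difference close to the median of these markers, and Itgb3, at 0.42, a smaller one.

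Of 22 macrophage and myeloid markers, 3 could be named and all 3 were higher, with a median of 0.53 and a summed intensity of 394.3 and 393.3 in the NKO mutants, against 247.7 and 238.4 in the controls. Mpo, the myeloperoxidase gene, had a difference of 0.92, Ly86 one of 0.53 and the complement gene C1qa one of 0.41. The leukocyte gene Itgb2, at 0.42, lay near C1qa. Mpo was higher in the first NKO array, as Itgb2 was, with 138.3 and 123.0 in the NKO mutants, against 66.20 and 57.21 in the controls. Ly86 had the other order of NKO arrays, with 121.5 and 134.5 in the NKO mutants, against 82.07 and 84.56 in the controls. All 4 of 18 red blood cell markers that could be named were higher too, with a median of 0.29 and sums of 2098 and 2197 in the NKO mutants, against 1739 and 1762 in the controls. They were Rhag at 0.39, Hemgn and Slc4a1 at 0.29 each and Alas2 at 0.23. Both endothelial markers that could be named of 15, Flt1 at 0.32 and Plvap at 0.29, were higher, with sums of 574.0 and 535.7 in the NKO mutants, against 451.5 and 438.0 in the controls. None of these named markers had an intensity of 0 in any array, which does not show that they were expressed. Values below 1 were rare, between 1.28% and 1.51% in each array. In the controls Mpo, among others, lay below the median intensities of 77.2 and 75.9, as Itgb3 did at 66.56 and 63.44. The FACS gate on FDG-stained cells of the Wnt1-Cre lineage is meant to leave out blood and vessel cells, and the part of any such cells in the integrin and kindlin values was not tested.

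**Figure D3:**
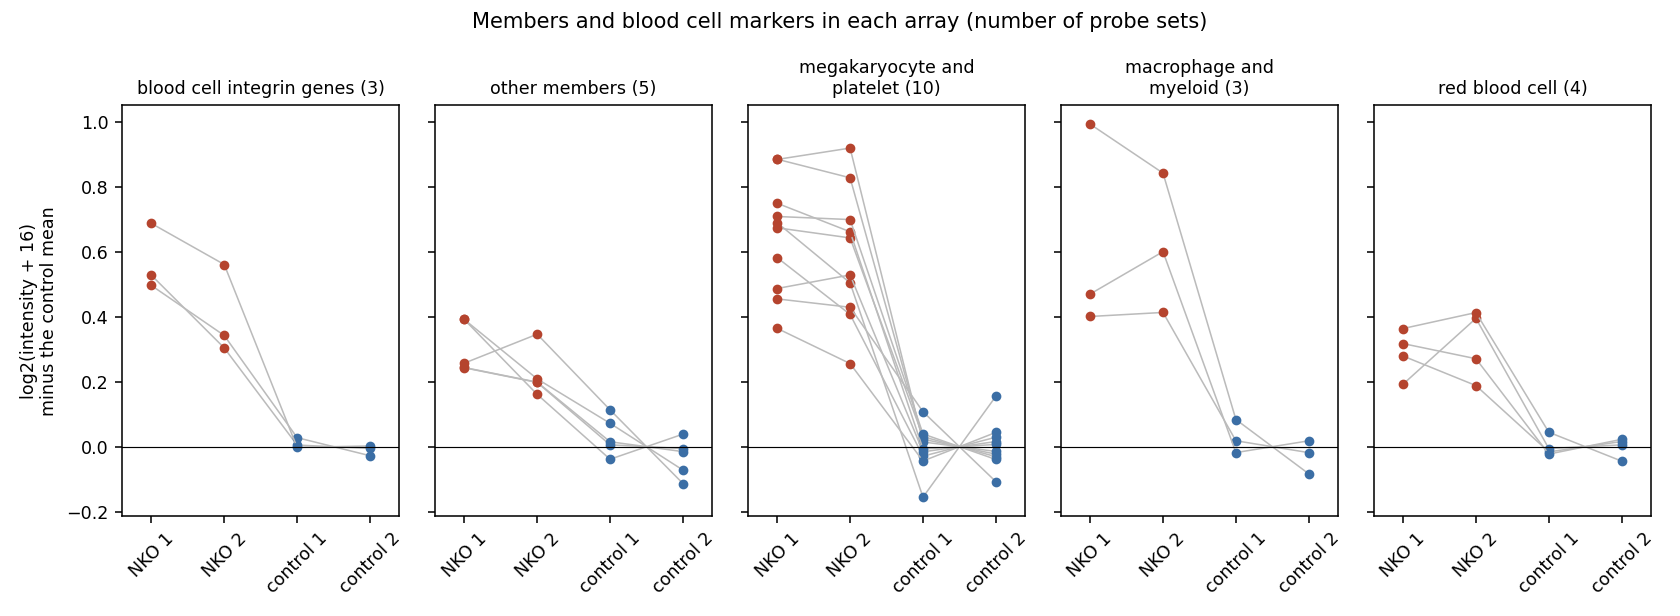
Each probe set's log2(intensity + 16) minus its control mean (vertical axis) in each array, for Itgb2, Itgb3 and Fermt3, for the other members, and for the named markers of 3 blood cell types; lines join values of the same probe set. The NKO arrays lie above the controls in every panel, and the panel of the other members has group differences of 0.22 to 0.30.

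Named markers of other cells, selected in the same way, differed as well, and not in 1 direction. All 12 neuronal markers that could be named of 16 were higher, with a median of 0.72, led by Sncg at 1.48, Stmn3 at 1.36, Prph at 1.32 and Nefm at 0.99, and with sums of 4700 and 4453 in the NKO mutants, against 2528 and 2512 in the controls. All 9 of 16 heart and skeletal muscle markers that could be named were lower, with a median of −0.42, among them Nppa at −0.67, Myog at −0.56 and Myf5 and Myh3 at −0.49, and with sums of 8878 and 8996 in the NKO mutants, against 11100 and 11020 in the controls. Vcl, Zyx, Rock2 and Ctnnb1 are expressed in neurons and muscle as well as in mesenchyme, and the part of such cells in their values was not tested.

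The 18 Affymetrix hybridization control probe sets, which detect labelled bacterial and phage transcripts added in fixed amounts, also had higher values in both NKO arrays than in both controls. Several of them detect the same transcript, so they are not 18 independent measures. Their median log2 difference was 0.22, with a range of 0.08 to 0.31, which is the size seen for Vcl and for Zyx 1417240_at. The array's 3′ control probe sets for β-actin and Gapdh differed by 0.044 and −0.021. Their 3′ to 5′ ratios, a sign of RNA quality, were 1.38 and 1.43 for β-actin and 0.966 and 0.963 for Gapdh in the NKO mutants, against 1.37 and 1.38 for β-actin and 0.960 and 0.968 for Gapdh in the controls. When each array was centred on the hybridization controls, which lowered the median of all probe sets to −0.253, Vcl and Zyx 1417240_at were at −0.05, Zyx 1438552_x_at, Rock2 and Ctnnb1 at 0.01, 0.03 and 0.04, Itgb2 and Itgb3 at 0.15 and Fermt3 at 0.36. This centring subtracts the median of an array's own hybridization controls, so the shift between genotypes need not equal the median difference of 0.22. It shifts every probe set of an array by the same amount, so it could not change how far the members lay above the median of all probe sets. With quantile normalization, or with each array centred on its median, the 8 differences lay between 0.20 and 0.60. The direction of Vcl and of Zyx 1417240_at therefore depended on the scaling, although −0.05 lay within their standard errors of 0.059 and 0.058 as reported. Fermt3 had the largest difference under every alternative run. The array's 3′ control probe set for 18S RNA had 2216 and 1078 in the NKO mutants, against 1261 and 1068 in the controls. Like most members it was thus higher in the first NKO array, and its part in their values was not tested.

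**Figure D4:**
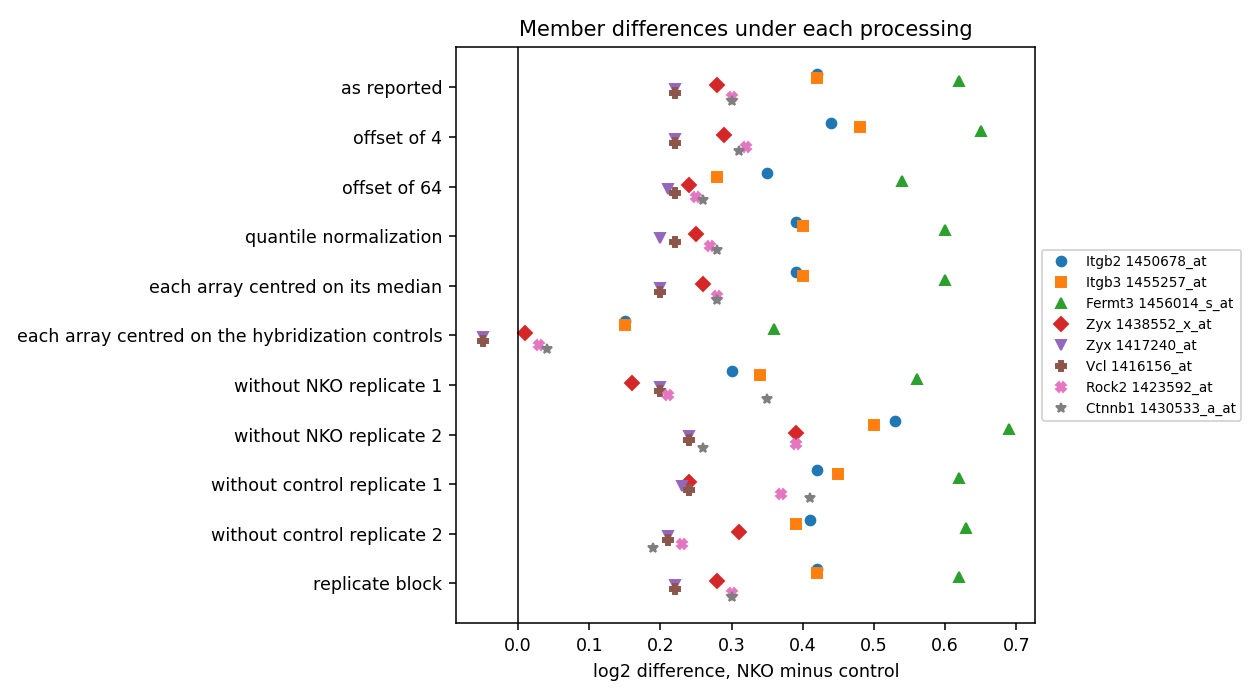
Log2 difference of each member probe set, NKO minus control (horizontal axis), under the processing reported and each alternative (rows). All points lie right of 0 except Vcl and Zyx 1417240_at, at −0.05 with each array centred on the hybridization controls, and Fermt3 lies farthest right in every row.

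Among the 541 other genes named alone, the genes whose values over the 4 arrays were most like each member were found by the root mean square distance of centred log2 values. All of these genes come from the list of differing probe sets, and with 4 arrays likeness says little beyond the size of the difference and the order of replicates. Vcl and Zyx 1417240_at were among the 3 nearest of each other, at a distance of 0.0066. The transcript 2610024G14Rik was also among the 3 nearest of both, with Zswim6 for Zyx and the kinase gene Hipk2 for Vcl. Itgb3 was the second nearest to Itgb2, at 0.030, after Cald1, the gene of the actin regulator caldesmon, at 0.028, and before Dus4l, at 0.031. The nearest gene to Itgb3 was Pax3, a transcription factor gene of the early neural crest, at 0.010, followed by Dus4l and Ctla2b. Those nearest to Fermt3 were Stmn2, a neuronal stathmin gene, at 0.015, Rufy3, a neuronal gene of axon growth, at 0.017, and S100a8, a calcium-binding protein gene of neutrophils, at 0.026. Rock2 was nearest to Ttc14, at 0.018, with Gfpt2 and Reep3 next. Ctnnb1 was nearest to the lysosomal gene Psap, at 0.015, with Btbd7 and Pcgf6 next. The nearest to Zyx 1438552_x_at was Bach2, a transcription factor gene of lymphocytes, at 0.019, with the stress kinase gene Mapk8 and Nr6a1 next. The genes nearest to Fermt3 thus held both neuronal genes and a blood cell gene.

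The promoter windows, from 250 bases before to 50 after a start site, covered 5 of the 7 members in 6 windows, 2 of them for Ctnnb1 that overlap each other, and Itgb2 and Itgb3 had none. Besides the CArG box, 9 short motifs were searched on both strands, each of which may overlap another. Those of blood and Wnt factors were CTTTGAT for TCF/LEF, CCGGAAGT for the ETS family, GAGGAAGT for PU.1, AGATAA for the GATA factors and TGTGGT for RUNX. The others were GGGCGG for SP1, TATAAA for the TATA box, GGAATG for TEAD factors and CCAAT for the box of that name. GGGCGG was in 5 of the 6 windows, those of Zyx, Vcl, Rock2 and Ctnnb1, beside 35.7% of all windows. CCAAT was in 2, those of Vcl and Ctnnb1, beside 37.4% of all, GGAATG in that of Vcl, beside 14.7%, and TATAAA in 1 of Ctnnb1, beside 13.6%. The TCF/LEF, ETS, PU.1 and GATA letters were in none of the 6, beside 3.73%, 3.89%, 3.20% and 11.2% of all windows. Such matches describe letters and not binding.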

How the data were processed

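Cardiac NCCs of 2 genotypes were measured on 4 Affymetrix arrays. The linear intensity values were deposited by the authors after summarization in Affymetrix Expression Console, which the submitters' notes name, with an algorithm not given in the sources used here. A second deposited table holds 766 probe sets past a Bonferroni threshold of 0.05 in VAMPIRE, and 19 of them are Affymetrix control probe sets. Its probe set and gene name columns were used (603 rows name 1 gene, 48 several and 115 none). The authors' deposited mean control intensity served as a scale check, and differed from the mean of the control columns by at most 0.0447%. The fold ratio and p-value columns that the authors deposited were not used.

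Without the 64 control probe sets of Affymetrix, 45037 probe sets were compared between genotypes on log2(intensity + 16) in R 4.3.3 with limma 3.58.1 (lmFit, then eBayes with no intensity trend). P-values were adjusted by Benjamini-Hochberg over all of them and called under 0.05. Standard errors come from this fit, which moderates each variance with that of all probe sets, so they can exceed the spread of close replicates. The fit was tested on simulated data that had the same spread for all probe sets. With 2 against 2 arrays an exact two-sided permutation test cannot go below 0.333, and the number of arrays limits the precision. A gene in a list was represented by its brightest probe set. Named are all members, Ilk, the 3 genes nearest to a member, all named genes of the 6 adhesion lists and up to 4 genes of each marker list. Members, lists and motifs were chosen with earlier results of these data known, and the centring on hybridization controls was chosen after seeing the data. The labels name Trizol and the methods name RNeasy for the RNA. Python 3.11.15 with pandas 2.3.3, numpy 2.4.6 and matplotlib 3.10.9 served for tables and plots.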

Additional observations from a re-analysis of the deposited data

Results flagged for a closer look

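The hybridization controls, which lie outside the comparison of genes, had a median log2 difference of 0.22 between NKO and control arrays. All 18 of these probe sets were higher in both NKO arrays, beside 24.2% of all probe sets tested. Several of the 18 detect the same added transcript and are not independent. They stand out because labelled transcripts added in fixed amounts gave more signal in 1 genotype than in the other.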

How the results depend on the processing

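All 8 member differences kept their sign with quantile normalization and median centring. Under other offsets, the replicate block and each array left out the sign could not change, because both NKO arrays lay above both controls. With arrays centred on the hybridization controls, Vcl and Zyx 1417240_at were at −0.05, the median member difference at 0.03 (0.30 as reported) and that of the other adhesion genes at −0.02 (0.25 as reported). Fermt3 was no longer 1.5-fold higher with an offset of 64, with that centring (0 members each) or without the first NKO array, so that this count lay between 0 and 1 with 1 array left out. With limma, the 0 probe sets with an adjusted p under 0.05 became 60 with an offset of 64, 51 without dim probe sets, 520 with an intensity trend and robust moderation and 3345 with the hybridization control centring. Probe sets at least 1.5-fold higher, 129 as reported, numbered 1103 with an offset of 4, 23 with an offset of 64, 38 without dim probe sets, 18 with the hybridization control centring and 226 to 387 with 1 array left out. For those at least 1.5-fold lower, 71 as reported, these were 913, 13, 11, 938 and 145 to 259. Without dim probe sets, 22518 were tested in place of 45037, so the counts of that setting have a smaller base. Both NKO arrays were above both controls in 6732 of those 22518, against 10910 of all 45037 as reported. With the hybridization control centring this order was seen in 413 of all 45037. The methods' t-test gave 3973 probe sets at their threshold and 0 after Benjamini-Hochberg adjustment.

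Replicate numbers did not pair the samples: deviations of same-numbered arrays correlated at −0.0332. With the replicate number as a block, limma had 0 probe sets with an adjusted p under 0.05, and the median member difference was 0.30.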
